A study of Homo sapiens with 7 samples.

Results

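The 8 genes KLK5, KLK6, KLK7, KLK8, KLK10, KLK11, KLK12 and KLK13 encode kallikrein-related peptidases, secreted serine proteases of epithelia. They were taken as the probes whose platform annotation gives exactly 1 symbol, being one of these, which came to 10 probes and 8 of the 18646 genes measured. The set was chosen on KLK11, whose ratio to control had been seen high in DLD1 cells and not in HT29 or RKO cells. Values of KLK11 on the DNMT1 knockdown arrays, the DLD1 values of all 8 genes taken by themselves and differences between lines are therefore described here without a test. The tests of the other 7 genes over all lines and between shRNAs include the DLD1 arrays.

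Kallikrein-related peptidases are made as inactive precursors and are switched on outside the cell by trypsin-like proteases, often by one another. Most cleave like trypsin, after arginine or lysine, whereas KLK7 cleaves like chymotrypsin. They are best known from skin, where KLK5 and KLK7 cut the junction proteins that hold dead surface cells together, and several are measured as tumour markers. Their genes lie side by side on human chromosome 19, together with the gene of prostate-specific antigen, KLK3.

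The series compared RNA of 4 established colorectal cancer cell lines on 7 microarrays read in 2 colours. DLD1, HT29 and RKO cells each carried an shRNA (a short hairpin RNA that lowers its target) against DNMT1, the methyltransferase that copies DNA methylation onto new strands. Each of these lines had 2 arrays, 1 with shRNA 51 and 1 with shRNA 49, and each array set the knockdown against the same line with a non-silencing control. HCT116 cells carried an shRNA against UHRF1, which recruits DNMT1 to replicating DNA, on 1 array, with d14 in its title and a labelled knockdown efficiency of 60%. Knockdown RNA carried Cy5 on the shRNA 51 and UHRF1 arrays and Cy3 on the shRNA 49 arrays, so shRNA and dye cannot be told apart. The labels say neither whether the cells were clones or pools nor whether arrays came from separate cultures or shared a control RNA. The p-values below therefore rest on the spread among the arrays alone, and that spread may be technical.

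The values are deposited log ratios, 1 per probe and array, taken as log2 from their range. They were read as knockdown over control because DNMT1 lay between -0.92 and -3.27 on the 6 DNMT1 arrays, which makes the direction likely without settling it. On the UHRF1 array the 4 UHRF1 probes disagreed (-3.10, -2.06, -0.18 and 0.68), so the direction there is less certain. The shRNA 51 arrays lacked a value for 2610 to 5075 of 41000 probes, against 205 to 352 on the shRNA 49 arrays, and their ratios spread more widely (interquartile range 0.778 to 0.968, against 0.558 to 0.726). Between 34.0% and 44.0% of an array's ratios were held exactly by another probe of that array, a property called shared below, for which no reason is stated. Of the 10 kallikrein probes, 2 or 3 held a shared ratio on each DLD1 and HT29 array. In RKO all but the KLK8 probe were shared or blank, and 6 were shared on the UHRF1 array. A ratio gives no level, so colon or other cell type markers could not be used to check the identity of the lines.

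DNMT1 acts on the dinucleotide CG, and promoter sequence of the kallikreins is shown to let its CG sites be seen beside the ratios. The windows run from 250 bases before to 50 after a transcript's start and come from RefSeq on GRCh38.p14. They number 12 for 7 of the 8 genes, with none for KLK8. Each is written 5′ to 3′ on the minus strand of chromosome 19, with every CG in capitals. KLK11 has windows at chr19:51027597-51027896 and chr19:51026567-51026866. The window of KLK12, the gene next to KLK11, is at chr19:51034953-51035252, and those of KLK6 and KLK5 are at chr19:50969542-50969841 and chr19:50952989-50953288. The KLK13 window at chr19:51064870-51065169 held the most CG sites of the 12.
KLK11 window 1: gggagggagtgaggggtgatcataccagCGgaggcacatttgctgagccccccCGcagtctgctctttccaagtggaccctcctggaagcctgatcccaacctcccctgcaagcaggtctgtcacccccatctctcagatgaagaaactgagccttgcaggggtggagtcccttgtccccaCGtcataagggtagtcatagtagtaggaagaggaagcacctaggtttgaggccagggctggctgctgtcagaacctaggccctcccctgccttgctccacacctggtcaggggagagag
KLK11 window 2: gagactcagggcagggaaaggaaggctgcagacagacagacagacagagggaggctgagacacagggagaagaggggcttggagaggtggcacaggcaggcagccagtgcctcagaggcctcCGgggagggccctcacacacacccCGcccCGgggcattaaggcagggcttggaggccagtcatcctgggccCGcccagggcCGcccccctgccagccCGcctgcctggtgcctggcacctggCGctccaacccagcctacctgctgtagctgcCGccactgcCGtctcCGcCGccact
KLK12: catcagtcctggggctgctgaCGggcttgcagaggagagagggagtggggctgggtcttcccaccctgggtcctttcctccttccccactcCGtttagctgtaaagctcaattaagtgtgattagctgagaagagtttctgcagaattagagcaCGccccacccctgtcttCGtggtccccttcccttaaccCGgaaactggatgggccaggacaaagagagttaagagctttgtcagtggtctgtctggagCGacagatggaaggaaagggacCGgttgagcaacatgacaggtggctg
KLK6: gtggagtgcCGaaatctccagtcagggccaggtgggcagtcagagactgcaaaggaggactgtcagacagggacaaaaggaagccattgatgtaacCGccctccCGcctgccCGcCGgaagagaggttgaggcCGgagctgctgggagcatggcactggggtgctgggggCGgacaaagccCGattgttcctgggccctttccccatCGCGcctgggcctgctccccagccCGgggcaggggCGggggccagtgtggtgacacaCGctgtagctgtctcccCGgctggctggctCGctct
KLK5: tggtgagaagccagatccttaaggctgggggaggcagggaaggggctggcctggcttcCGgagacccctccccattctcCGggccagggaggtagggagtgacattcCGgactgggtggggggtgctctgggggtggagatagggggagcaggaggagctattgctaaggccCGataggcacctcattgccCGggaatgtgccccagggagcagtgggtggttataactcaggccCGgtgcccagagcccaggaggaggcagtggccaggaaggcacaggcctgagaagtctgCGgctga
KLK13 window 2: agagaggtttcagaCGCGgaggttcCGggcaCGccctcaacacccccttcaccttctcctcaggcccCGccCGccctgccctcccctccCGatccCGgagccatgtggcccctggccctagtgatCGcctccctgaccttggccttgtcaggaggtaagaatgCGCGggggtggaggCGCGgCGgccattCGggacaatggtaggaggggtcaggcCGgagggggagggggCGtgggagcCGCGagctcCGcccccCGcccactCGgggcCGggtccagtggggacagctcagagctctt

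The upstream KLK11 window held 3 CG and the downstream one 11. KLK5 and KLK12 each held 7, KLK6 held 15 and the KLK13 window above held 23. Over all 12 kallikrein windows the count ran from 3 to 23 with a median of 12, and 5 of 12 lay above 14, the median of the 35116 windows in the table. Of all windows, 96.0% held at least 1 CG, 81.8% held at least 3 and 35.8% at least 23. The letters TATAA, searched on both strands, occurred in 3 of the 12 kallikrein windows, those of KLK5 and of 2 overlapping KLK7 starts, and in 20.4% of all windows. KLK11, with the highest DLD1 mean ratio of the 8 genes, had both windows below the median of all windows. KLK6, with DLD1 ratios of 2.13 with shRNA 51 and 1.72 with shRNA 49, had a window above that median. The CG-richest window was that of KLK13, whose DLD1 ratios, all shared, were within 2-fold of control. KLK8, with a DLD1 mean of 3.97, has no window here. A relation between CG count and ratio was not tested. These counts describe the reference sequence, and the methylation state of the windows was not analysed here.

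**Figure D1:**
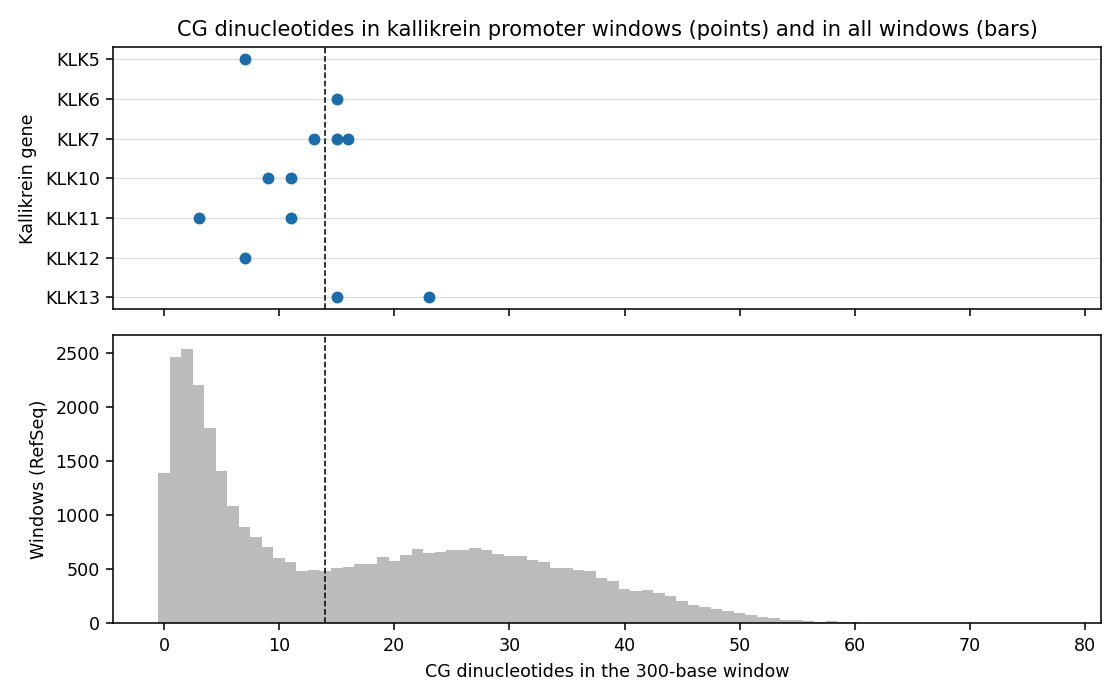
CG dinucleotides in the 300-base promoter windows. Points in the upper panel are the 12 windows of 7 kallikrein genes, bars in the lower panel count all 35116 RefSeq windows by their CG number, and the dashed line marks the median of all windows, 14. The kallikrein windows run from 3 CG (KLK11) to 23 CG (KLK13).

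KLK11, a trypsin-like peptidase also called hippostasin, stood far above control in DLD1 alone among the lines. Its log2 ratio there was 3.48 with shRNA 51 and 4.87 with shRNA 49, or 11.2-fold and 29.2-fold over control. HT29 gave -0.65 and 0.29, RKO gave -1.0 and -0.15, and on the HCT116 UHRF1 array -0.99. The line means were 4.17 in DLD1, -0.18 in HT29 and -0.58 in RKO, and the HT29 and RKO arrays overlap. The DLD1 value with shRNA 51 was shared with 1 other probe, and the RKO and UHRF1 values were shared too. Because these values chose the set, no test is given for them.

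In DLD1, KLK6, KLK8, KLK11 and KLK12 were at least 2-fold above control on both arrays, 4 of the 8 genes. Of all 17874 genes with both DLD1 values, 338 (1.89%) did so, and nothing is read from that difference since these arrays chose the set. The DLD1 mean was 2.06 in the median over the 8 kallikreins and 0.02 over all genes. KLK8 stood at 4.86 with shRNA 51 and 3.08 with shRNA 49, and KLK12 at 2.32 and 2.06. KLK6 stood at 2.13 and 1.72. The ratio of KLK5 was much larger with shRNA 51 (4.25) than with shRNA 49 (0.70), and KLK7 lay above control with shRNA 51 (1.71) and below it with shRNA 49 (-0.21). Averaged over their probes, KLK10 (0.90 and 0.22) and KLK13 (0.08 and 0.57) stayed within 2-fold of control on both arrays. With shRNA 51 the KLK10 probes stood at 1.05 and 0.74, on either side of the 2-fold line.

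**Figure D2:**
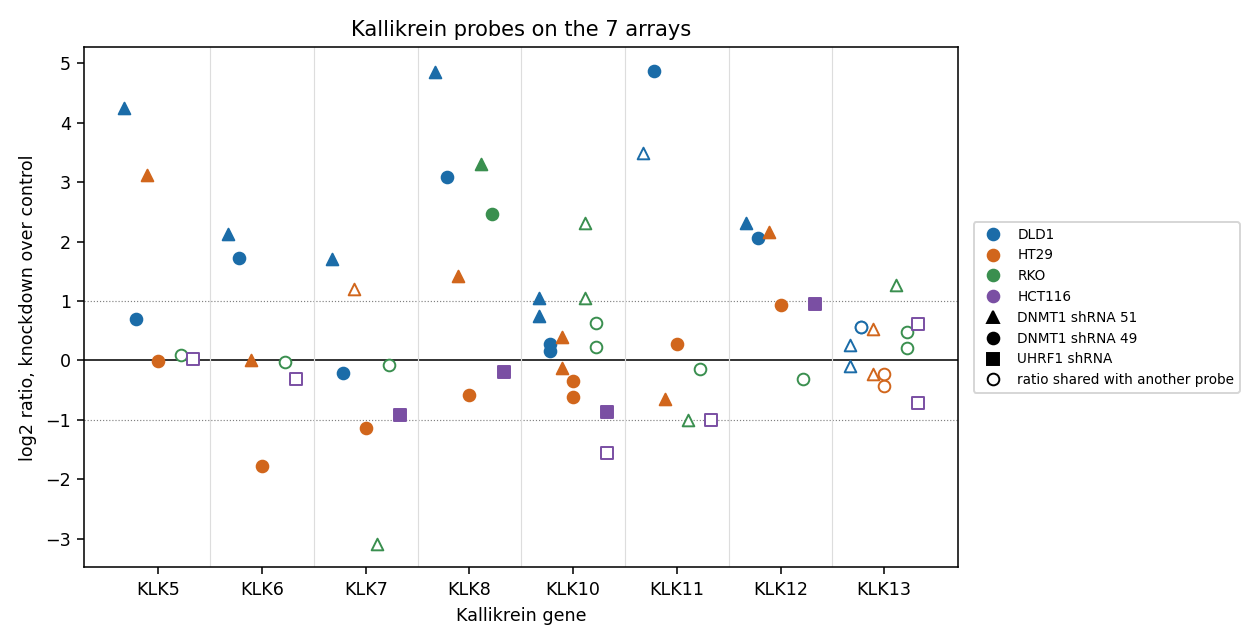
Log2 ratio of knockdown over control for each probe of the 8 kallikrein genes. Colours mark the cell lines, triangles and circles the DNMT1 shRNAs 51 and 49, squares the UHRF1 array, and open symbols a ratio that another probe of the same array holds exactly. DLD1 points of KLK6, KLK8, KLK11 and KLK12 lie above the dotted 2-fold line at 1 with both shRNAs, and only KLK8 does so in RKO.

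The comparison over the 3 DNMT1 lines asked which genes differ from control whatever the line. The test was run with limma on 17623 genes, for the mean ratio over both shRNAs, with a covariate for the shRNA and a random block for the line. It called 67 higher (0.38%) and 3 lower (0.017%) at an adjusted p of 0.05. Among the 7 kallikreins other than KLK11, 1 was called higher, KLK5, and 0 lower. The median all-lines log2 ratio was 0.83 over the 8 kallikreins and 0.03 over all genes tested, and 7 of the 8 lay above 0. These means include the DLD1 arrays, and the median and the count of 7 include KLK11, whose values chose the set. The share of all genes above 0 was not counted.

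KLK5, the trypsin-like skin peptidase that activates KLK7, was called higher over the lines, with larger ratios on the shRNA 51 arrays. Its shRNA contrast did not pass (limma adjusted p = 0.328), and shRNA cannot be told apart from dye. Its log2 ratio with shRNA 51 was 4.25 in DLD1 and 3.13 in HT29, the HT29 value being 8.73-fold, and the RKO cell of the table is blank. With shRNA 49 the DLD1 ratio was 0.70, that of HT29 -0.0017 and that of RKO 0.09, the last of these shared. The shRNA 51 values thus lay above every shRNA 49 value. The fit, which drops the blank RKO array, gave 1.97 ± 0.23 (SE, n = 5 arrays, limma adjusted p = 0.0488). The plain mean of the 5 values was 1.63 with an SD of 1.94. The fit takes the shRNA difference out of its error, and it weights both shRNAs equally although the RKO shRNA 51 value is blank. Without the shRNA covariate the estimate was 1.64. The call ended in 11 of 16 alternative settings, with values from 0.26 to 3.69. It stood at 0.26 with the shRNA 49 arrays alone (adjusted p = 0.679) and 3.69 with the shRNA 51 arrays alone (adjusted p = 0.325). Of the single arrays, the call was lost without DLD1 shRNA 51 (1.71, adjusted p = 0.0547), DLD1 shRNA 49 (1.88, adjusted p = 0.201), HT29 shRNA 49 (2.01, adjusted p = 0.244) or RKO shRNA 49 (2.02, adjusted p = 0.259).

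KLK8, or neuropsin, a trypsin-like peptidase of skin and hippocampus, had the largest all-lines mean of the 8 and did not pass the test. Among the 8 genes it was the sole one whose probe held its own, unshared ratio on every array. In RKO it stood at 3.31 with shRNA 51 and 2.47 with shRNA 49, or 9.88-fold and 5.54-fold over control, beside the DLD1 values of 4.86 and 3.08. In HT29 it was 1.42 with shRNA 51 and -0.58 with shRNA 49. Thus 5 of 6 arrays lay at least 2-fold above control and 1 HT29 array lay below it, with line means of 3.97 in DLD1, 2.89 in RKO and 0.42 in HT29. The DLD1 and RKO values overlap. The all-lines mean was 2.42 ± 0.59 (SE, n = 6 arrays, limma adjusted p = 0.224), or 5.37-fold, and it did not pass in any of 18 alternative settings, where it ran from 1.66 to 3.19.

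KLK12, a trypsin-like peptidase encoded next to KLK11, lay above control on both arrays of DLD1 and of HT29. In HT29 it stood at 2.16 with shRNA 51 and 0.93 with shRNA 49, beside DLD1 values of 2.32 and 2.06, so the lines were close with shRNA 51 and apart with shRNA 49. In RKO a shared ratio of -0.31 was the only value. The all-lines mean was 1.52 ± 0.37 (SE, n = 5 arrays, limma adjusted p = 0.244). KLK12 was the single kallikrein above 0 on both HT29 arrays.

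KLK6, or neurosin, a trypsin-like peptidase known to cleave amyloid precursor protein and alpha-synuclein, had mean ratios of opposite sign in DLD1 and HT29. Against 2.13 and 1.72 in DLD1, HT29 gave 0.0032 with shRNA 51 and -1.77 with shRNA 49. The line means were 1.93 in DLD1 and -0.89 in HT29, with no overlap of their arrays, and RKO had only a shared ratio of -0.02. The all-lines mean was 0.52 ± 0.56 (SE, n = 5 arrays, limma adjusted p = 0.78).

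KLK7, the chymotrypsin-like peptidase of the skin surface, split by shRNA in 2 of the lines. With shRNA 51 it stood at 1.71 in DLD1 and 1.21 in HT29, and with shRNA 49 at -0.21 and -1.13, with the 1.21 a shared ratio. In RKO it was -3.08 with shRNA 51 and -0.08 with shRNA 49, both shared ratios. The all-lines mean was -0.27 ± 0.67 (SE, n = 6 arrays, limma adjusted p = 0.916), the only one of the 8 below 0, and without the RKO shRNA 51 array it was 0.52.

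KLK10 and KLK13 had the smallest mean ratios in DLD1. KLK10, first described as a gene of normal epithelial cells that is lost in breast cancer lines, was read by 2 probes. Averaged over them, RKO gave 1.68 with shRNA 51 and 0.43 with shRNA 49, DLD1 gave 0.90 and 0.22, and HT29 gave 0.13 and -0.48. Its RKO probe values were 2.32 and 1.05 with shRNA 51 and 0.23 and 0.63 with shRNA 49, all of them shared. In HT29 with shRNA 51 its probes disagreed in sign, at 0.40 and -0.13. KLK13, a trypsin-like peptidase, was read by 2 probes whose 13 values were all shared. With shRNA 51 in RKO 1 of these probes was blank, so the value there is that of the other alone. Averaged over probes with a value, its ratios with shRNA 51 and shRNA 49 were 1.27 and 0.34 for RKO. They were 0.08 and 0.57 for DLD1, and 0.16 and -0.33 for HT29. Its probes disagreed in sign with shRNA 51 in DLD1 (0.26 and -0.09) and in HT29 (-0.22 and 0.54), and also on the UHRF1 array. The all-lines means were 0.48 ± 0.24 for KLK10 (adjusted p = 0.513) and 0.35 ± 0.23 for KLK13 (adjusted p = 0.617; limma, SE, n = 6 arrays each).

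Of the kallikreins at least 2-fold above control on both DLD1 arrays, KLK8 alone was so in another line, RKO. At least 2-fold above control on both arrays stood 0 of 8 genes in HT29, where 267 of 16963 genes (1.57%) did. In RKO it was 1 of the 5 genes with both values, KLK8, against 343 of 17010 genes (2.02%). The line mean was -0.02 in the median over the 8 kallikreins in HT29 and 0.81 over those 5 in RKO, beside 0.02 and 0.03 over all genes. Above 0 on both arrays were 7 of 8 kallikreins in DLD1, 1 of 8 in HT29 and 3 of 5 in RKO, and KLK7 and KLK11 lay below 0 on both RKO arrays. The share of all genes above or below 0 on both arrays was not counted, so nothing is read from these counts. Differences between the lines carry no test, since the choice of KLK11 used them.

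**Figure D3:**
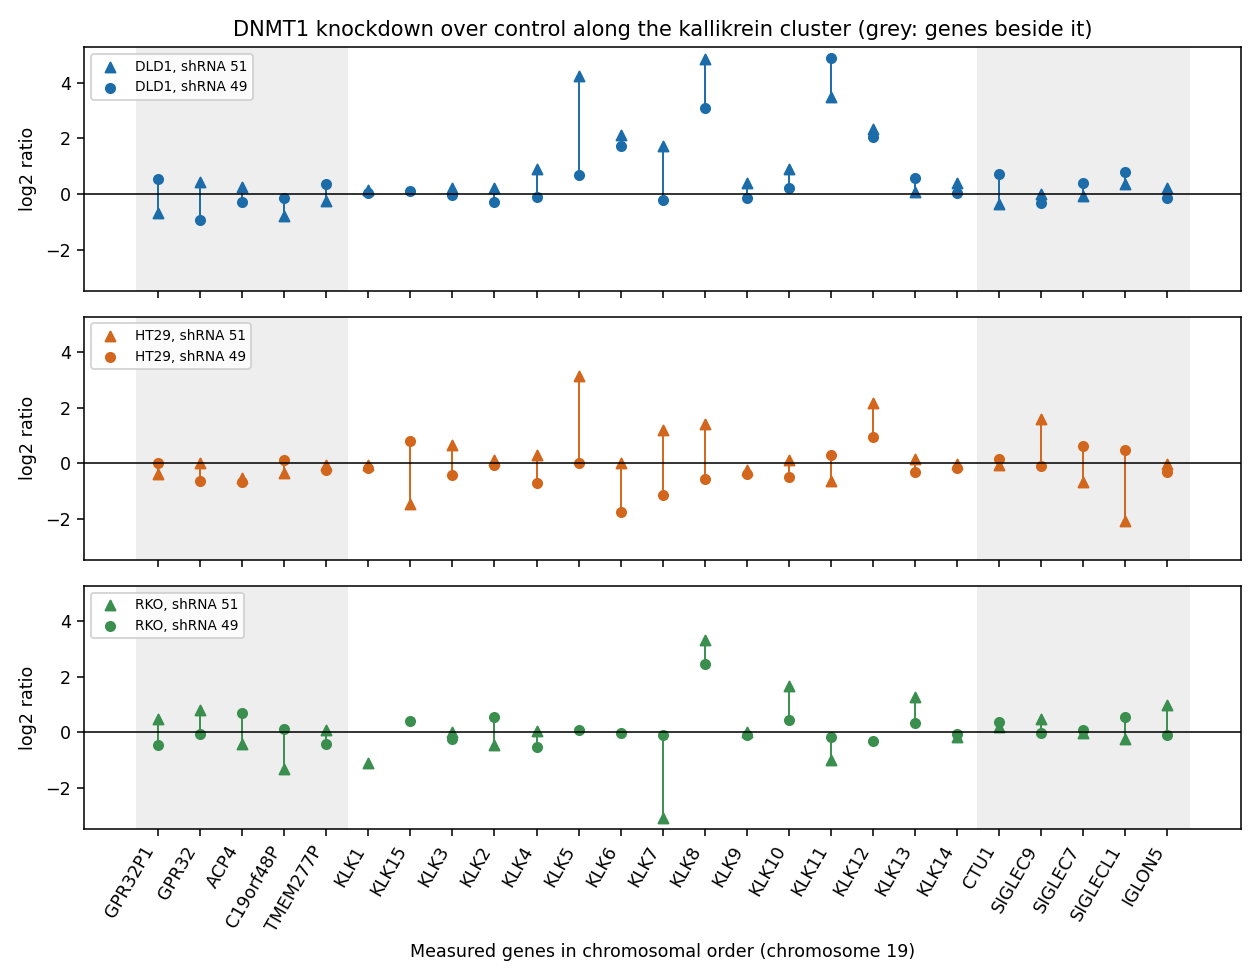
Log2 ratio of DNMT1 knockdown over control for 15 KLK genes in their order on chromosome 19, with the 5 nearest measured genes on each side shaded grey. Triangles are shRNA 51 and circles shRNA 49, joined by a line, in DLD1, HT29 and RKO from top to bottom. In DLD1 the high genes lie between KLK5 and KLK12. Inside that stretch KLK9 and, averaged over its probes, KLK10 are within 2-fold of control.

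The 8 genes lie within a run of 9 measured KLK genes from KLK5 to KLK13, which KLK9 interrupts. For KLK9, between KLK8 and KLK10, DLD1 gave 0.39 with shRNA 51 and -0.13 with shRNA 49, HT29 gave -0.26 and -0.39, and RKO gave 0.03 and -0.09. It thus lay within 2-fold of control on all 6 arrays, beside KLK8 at 3.08 to 4.86 in DLD1. KLK14, past KLK13, stood at 0.38 and 0.02 in DLD1. Of the 8 other kallikreins (KLK1, KLK2, KLK3, KLK4, KLK9, KLK14, KLK15 and the plasma kallikrein gene KLKB1, which is not on this chromosome), 7 could be tested and 0 passed. Their all-lines means ran from -0.38 (KLKB1, adjusted p = 0.386) to 0.04 (KLK3, adjusted p = 0.957) by limma. At least 2-fold higher on both DLD1 arrays were 0 of the 7 with both values and 1.89% of all genes, so nothing is read from that 0. None of the 10 nearest measured genes outside the cluster, such as ACP4 and GPR32 on the KLK1 side and CTU1 and SIGLEC9 on the KLK14 side, passed the test. Their DLD1 means ran from -0.48 (C19orf48P) to 0.58 (SIGLECL1). The test called 0.38% of all genes higher and 0.017% lower, so nothing is read from the absence of calls in so few genes. Genes of this family are alike in sequence, and cross-hybridisation between them was not tested.

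The contrast of shRNA 51 with shRNA 49 was not used in choosing the set. By limma, with 1 coefficient per line, 0 of 17623 genes (0%) were called higher and 0 (0%) lower, while 1982 had an unadjusted p under 0.05 and the smallest adjusted p was 0.231. Ratios were higher with shRNA 51 for 7 of the 8 kallikreins and for 57.3% of all genes tested. That direction turned after quantile normalization for KLK8 (-0.11) and KLK12 (-0.87), and for KLK7 without the DLD1 arrays (-0.33) or the HT29 arrays (-0.54). The median difference was 0.79 over the kallikreins and 0.10 over all genes. KLK5 had the largest, 3.34 ± 0.37 (SE, adjusted p = 0.328), and KLK8 stood at 1.54 ± 0.35 (adjusted p = 0.383). KLK6 (1.09 ± 0.50, adjusted p = 0.507), KLK10 (0.85 ± 0.29, adjusted p = 0.431) and KLK12 (0.74 ± 0.43, adjusted p = 0.567) came next. KLK7 (0.42 ± 1.14, adjusted p = 0.905) and KLK13 (0.31 ± 0.37, adjusted p = 0.757) had the smallest. For KLK5, KLK6 and KLK12, blank on the RKO shRNA 51 array, the difference rests on the DLD1 and HT29 pairs alone. KLK11 alone had a lower ratio with shRNA 51, in each of the 3 lines, with a mean difference of -1.06, for which no test is given.

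**Figure D4:**
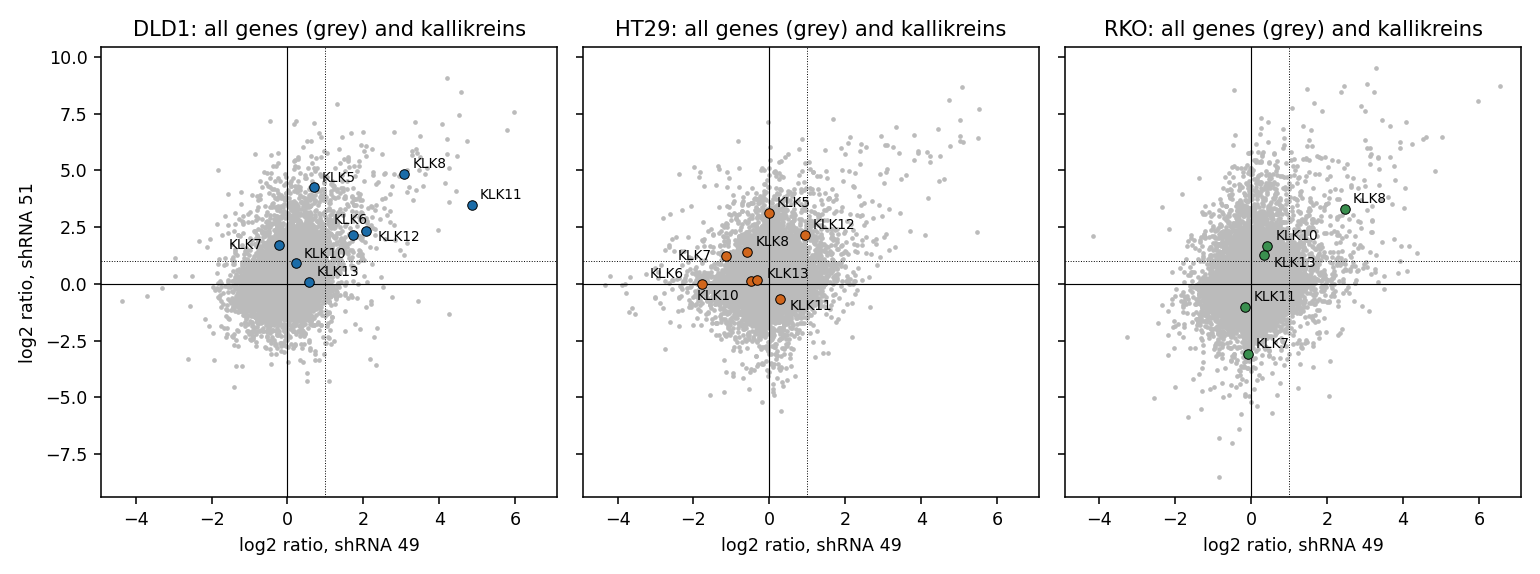
Log2 ratio with shRNA 51 (vertical axis) against log2 ratio with shRNA 49 (horizontal axis) for all genes (grey) and the kallikreins with both values (coloured), in DLD1, HT29 and RKO. Dotted lines mark 2-fold above control. KLK8 lies past both dotted lines in DLD1 and RKO, and KLK5 lies past only the shRNA 51 line in DLD1 and HT29.

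By array, the kallikreins at least 2-fold above control numbered 6 of 8 in DLD1 with shRNA 51 and 4 of 8 with shRNA 49, beside 13.17% and 2.93% of all genes. In HT29 they numbered 4 of 8 with shRNA 51 and 0 of 8 with shRNA 49, beside 11.51% and 3.63%. In RKO they numbered 3 of 5 with shRNA 51 and 1 of 8 with shRNA 49, beside 13.27% and 5.32%. With shRNA 51 in RKO these were KLK8, on its own ratio, and KLK10 and KLK13, on shared ratios alone. The DLD1 counts include KLK11 and come from the arrays that chose the set, so nothing is read from them. At least 2-fold below control were KLK7 and KLK11 in RKO with shRNA 51, 2 of 5, both on shared ratios. In HT29 with shRNA 49 KLK6 and KLK7 were so, 2 of 8. The share of all genes that low on those arrays was not counted, so nothing is read from the lower counts. The shRNA 51 arrays, which have the wider spread and more blanks, held more kallikreins at least 2-fold above control in every line, as they did for all genes. The part of that spread in the kallikrein differences was not tested.

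UHRF1 depletion in HCT116 had 1 array and so no replicate check. At least 2-fold above control stood 0 of the 8 kallikreins and 839 of 18175 genes (4.62%), and at least 2-fold below stood 1, KLK10, and 422 genes (2.32%). The median was -0.26 over the kallikreins and 0.03 over all genes, and 6 of the 8 lay below 0. The share of all genes below 0 was not counted. KLK10 averaged -1.22 over probe values of -0.87 and -1.56, the second of them shared. KLK11 stood at -0.99, KLK7 at -0.92 and KLK12 at 0.95, while KLK6 (-0.31), KLK8 (-0.20) and KLK5 (0.02) lay nearer to control. KLK13 averaged -0.05 over shared probe values of opposite sign, 0.61 and -0.72. DNMT1 itself stood at 0.09 on this array.

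Genes with a pattern like that of KLK11 were sought among the 195 genes whose DLD1 mean was at least 2 and which had a value on all 7 arrays. The highest Pearson correlations over the 7 arrays were those of FKBP10 (0.929), a collagen-folding isomerase, NR2F1 (0.918), an orphan nuclear receptor, and ZG16B (0.918), a secreted lectin-like protein. CAVIN1 (0.913), a caveolar coat protein, and TSPAN31 (0.911), a tetraspanin, followed. In DLD1 FKBP10 stood at 3.69 with shRNA 51 and 3.30 with shRNA 49, whereas HT29 gave 0.41 and -0.68 and RKO gave -1.34 and -0.15. KLK8 was the only other kallikrein in this comparison, with a correlation of 0.553 and rank 100. The correlations rest on the distance between the DLD1 arrays, on which all these genes were chosen to be high, and the rest, and are given as a description.

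Among genes of the kallikrein pathway outside the family, 0 passed the all-lines test, which called 0.38% of all genes higher and 0.017% lower. At such shares few calls would arise in lists this short, so nothing is read from the 0. Of the extracellular inhibitors of kallikreins (SPINK, SERPIN and related genes), 11 were tested, 0 passed in either direction and the median log2 ratio was 0.07. PI3, or elafin, stood at 0.40 (adjusted p = 0.596), and SERPINA4, or kallistatin, at -0.44 (adjusted p = 0.788). Of proteases that activate kallikreins or act beside them, 0 of 10 passed, with a median of 0.14. PLAU, or urokinase, stood at 3.10 in DLD1, 3.02 in HT29 and 2.25 in RKO with shRNA 51, against 0.36, -0.87 and -0.61 with shRNA 49. Its all-lines mean was 1.21 ± 0.22 (SE, n = 6 arrays, adjusted p = 0.122), and its shRNA 51 values all lay above its shRNA 49 values, as for KLK5. Of substrates and receptors 0 of 19 passed, with a median of 0.30, led by FN1, or fibronectin (1.41, adjusted p = 0.478), and BDKRB1, a kinin receptor (1.36, adjusted p = 0.136). Of steroid and nuclear hormone receptors, which regulate several kallikreins, 0 of 8 passed, with a median of 0.08, and RARB, a retinoic acid receptor, was the single one at least 2-fold above control on both DLD1 arrays, at 3.02 and 1.90. All p-values here are those of limma over all genes.

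Genes of stratified epithelium, the tissue in which several kallikreins are most abundant, had a higher median ratio in DLD1 than in HT29 or RKO. Of 20 tested over all lines 0 passed, where 0.38% of all genes were called higher, and the median log2 ratio was 0.73. Their median was 1.42 in DLD1, 0.20 in HT29 and 0.17 in RKO. At least 2-fold above control on both DLD1 arrays stood 6 of 20, beside the 1.89% of all genes given above. These were DMKN, or dermokine (6.70 with shRNA 51 and 2.81 with shRNA 49), CALML5 (4.79 and 1.42), S100A9 (4.51 and 1.57), KRT13 (4.19 and 1.32), CSTA (3.55 and 1.13) and TGM1, the cross-linking enzyme of the cornified envelope (2.19 and 1.61). High ratios were not confined to DLD1. In HT29 CALML5 stood at 2.38 with shRNA 51 and 2.21 with shRNA 49, and CSTA at 3.08 and -0.57. In RKO CSTA stood at 1.36 and 0.91, and CALML5 at 0.26 with shRNA 49, its only value. The HT29 and RKO values of the other genes named are not given here. The list's median in DLD1 was 2.45 with shRNA 51 and 0.43 with shRNA 49, and a difference between the lines was not tested. The list was chosen with earlier results of these data known, so nothing is read from 6 of 20 against 1.89%.

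Marker lists of other cell types gave the values below. The all-lines test called 0.38% of all genes higher, so 0 calls in lists this short are not read as a result. Of the squamous markers, KRT5 stood at 5.32 and 0.66 and KRT14 at 2.04 and 0.39 in DLD1 with shRNA 51 and shRNA 49. In RKO KRT5 stood at 0.58 and 2.41 and KRT14 at 1.61 and 0.08, in the same order. The squamous medians were 2.10 in DLD1, 0.22 in HT29 and 1.17 in RKO, and 0 of 2 passed over all lines. Of colon epithelium markers 0 of 10 passed, with medians of 0.67 in DLD1, -0.19 in HT29 and -0.30 in RKO. In DLD1 VIL1, or villin, stood at 1.19 with shRNA 51 and 1.97 with shRNA 49, KRT19 at 2.46 and 0.60, EPCAM at 0.35 and 0.03 and KRT20 at 0.22 and -0.91. In RKO EPCAM stood at 4.74 with shRNA 51 and 1.44 with shRNA 49 and KRT19 at 4.13 and -0.31. VIL1 (-0.47 and -0.39) and KRT20 (-0.18 and -0.48) lay below 0 there. Of fibroblast and endothelium markers 0 of 8 passed and of haematopoietic markers 0 of 4, with DLD1 medians of 0.20 and 0.30. Their medians were 0.51 and 0.26 in HT29 and 0.09 and -0.01 in RKO. LUM, the fibroblast and endothelium marker with the largest all-lines mean, stood at 5.77 with shRNA 51 and 3.41 with shRNA 49 in HT29. In RKO it stood at -1.47 and -0.43. The part of these lists in the kallikrein ratios was not tested.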

How the data were processed

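The values are log2 ratios that the authors deposited, 1 per probe and array. The log base was taken from their range and their direction from DNMT1, while for background correction and normalization the sources used here give no method. The submitters' processing notes name limma without a version. The deposited values cover 41000 probes, of which 29341 have 1 gene symbol in the platform annotation, 33 several and 11626 none listed. Each gene's value is the mean log2 ratio of its probes with that symbol alone. A gene was tested with a value on at least 5 of 6 DNMT1 arrays, which left 1023 genes untested.

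Tests used limma 3.58.1 in R 4.3.3 (data.table, version 1.17.8), with p-values adjusted by Benjamini and Hochberg over all genes tested. In the all-lines fit duplicateCorrelation estimated a correlation of 0.165 between arrays of a line. The all-lines fit was tried on simulated ratios with known changes, and the shRNA fit was not. The simulated ratios had no blanks, no correlation within a line and no shRNA difference. Tables and plots used Python 3.11.15, pandas 2.3.3, numpy 2.4.6 and matplotlib 3.10.9. The number of arrays limits the precision.

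The kallikreins and the gene lists were chosen with earlier results of these data known. All 8 kallikreins were named with every value, and from other lists at most 4 genes with the largest all-lines means, plus those counted on both DLD1 arrays, which were named after their values were seen. Alternatives changed the covariate, block, normalization, centring, filters, probes and arrays used.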

Additional observations from a re-analysis of the deposited data

Results flagged for a closer look

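The difference of KLK11 between DLD1 and RKO drew attention because every array of DLD1 lay above 0 and every array of RKO below it, a contrast already used in choosing the set. Its mean log2 ratio was 4.75 higher in DLD1 than in RKO, with 3.48 and 4.87 on the DLD1 arrays and -1.0 and -0.15 on the RKO arrays. The RKO values and the DLD1 value of 3.48 were held exactly by other probes of their arrays. The difference was not tested, since KLK11 was chosen on it.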

How the results depend on the processing

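The counts over all lines (67 higher, 3 lower) were 10 and 0 without the shRNA covariate, 7 and 0 with the arrays of a line averaged, 30 and 0 after quantile normalization, 5 and 0 with the shRNA 49 arrays alone and 13 and 0 with the shRNA 51 arrays alone. The lower count was 7 without the random block and 5 with probes tested separately. Without single arrays the counts ran from 8 to 168 and from 0 to 38. With shared ratios left out, 1 gene was higher and 2 lower with shRNA 51, and the UHRF1 array had 388 and 196 genes past 2-fold in place of 839 and 422. KLK6 changed sign with the shRNA 49 arrays alone (-0.02), and KLK7 ran from -0.70 to 0.52 over its alternatives, with 0.52 reached without the RKO shRNA 51 array. The shRNA difference changed sign for KLK8 (-0.11) and KLK12 (-0.87) after quantile normalization, and for KLK7 without the DLD1 arrays (-0.33) or the HT29 arrays (-0.54). The cause of these changes was not tested. KLK5, the only kallikrein called, also lost its call without the shRNA covariate (1.64, adjusted p = 0.423), with arrays of a line averaged (1.37, adjusted p = 0.537), after quantile normalization (1.62, adjusted p = 0.137), with array medians subtracted (1.95, adjusted p = 0.0505) and among probes tested singly (adjusted p = 0.0525), all by limma. KLK5, KLK6 and KLK12 gave no value under a filter of 6 arrays, and with shared ratios left out most kallikreins could not be tested.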
